A study of Homo sapiens with 4 samples.

Results

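Around ZFP36L2 and THADA on human chromosome 2, the 2 deposited HNF1 peak lists held 16 distinct binding sites, of which 11 stood in both lists. The sites were chosen by position, as all peaks with a midpoint in hg19 between 43000 and 43850 kb of that chromosome, a stretch of 850 kb. Replicate 1 had 12 peaks there out of 5060, and replicate 2 had 15 out of 4955. Joined where they overlapped, they made 16 of the 7108 distinct sites of the series. This locus was picked because earlier results on the same lists showed many recurrent sites close together. The number, recurrence, spacing and scores of its sites are therefore given as a description, with no test.

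HNF1 was profiled by chromatin immunoprecipitation and sequencing in Caco2 cells, a line from a human colorectal adenocarcinoma that is widely used as a model of the intestinal epithelium. The cells were grown in low-glucose DMEM with 10% serum, and the labels name no treatment. The study had 4 libraries, 2 from immunoprecipitation (replicates 1 and 2) and 2 from input chromatin without antibody, and each peak list was called against the input of the same replicate number. The labels do not say whether the replicates were separate cultures. The antibody field names HNF1 while the extraction text names FOXA2, so the target rests on the antibody field and the titles. All cells were of 1 line, and no control for antibody specificity was analysed here.

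HNF1 proteins are homeodomain transcription factors that bind DNA as dimers, at a palindrome built from inverted copies of the motif GTTAAT. They act in liver, kidney, pancreas and gut epithelium, often from sites far from gene starts. ZFP36L2 encodes a CCCH zinc finger protein that binds AU-rich elements of mRNAs and recruits the deadenylation machinery, which shortens the life of the mRNA. THADA, first known from chromosome rearrangements in thyroid adenomas, encodes a large protein related to yeast Trm732, a partner in tRNA methylation. Both genes are transcribed towards lower coordinates. By the approximate hg19 intervals used here, ZFP36L2 spans 43449 to 43454 kb and THADA 43458 to 43823 kb. In RefSeq's gene order for GRCh38.p14, HAAO is the next named protein-coding gene beyond ZFP36L2 and PLEKHH2 the next beyond THADA. LINC01126 lies between ZFP36L2 and THADA, and LINC01819 and LINC02580 are among 7 long non-coding RNA entries between HAAO and ZFP36L2. The positions of these non-coding genes in hg19 were not used here, so a site called distal may still lie inside one of them. The sequences under the peaks were not analysed here, and no motif was searched for.

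Most of the sites lay past the 3' end of ZFP36L2. Of the 11 shared sites, 9 were on this distal side and 2 were inside THADA. None of the 16 sites fell inside ZFP36L2, between the genes, or above THADA. The shared sites spanned 419 kb, and those on the distal side spanned 237 kb. The nearest peak of either list was 762 kb below the lowest site and 642 kb above the highest. Both neighbours outside stood in both lists as well, with scores of 18 and 25 on the lower side and 9 and 9 on the upper side. The nearest of them lay 439 kb outside the window, so moving its edges by 100 kb changed nothing.

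**Figure D1:**
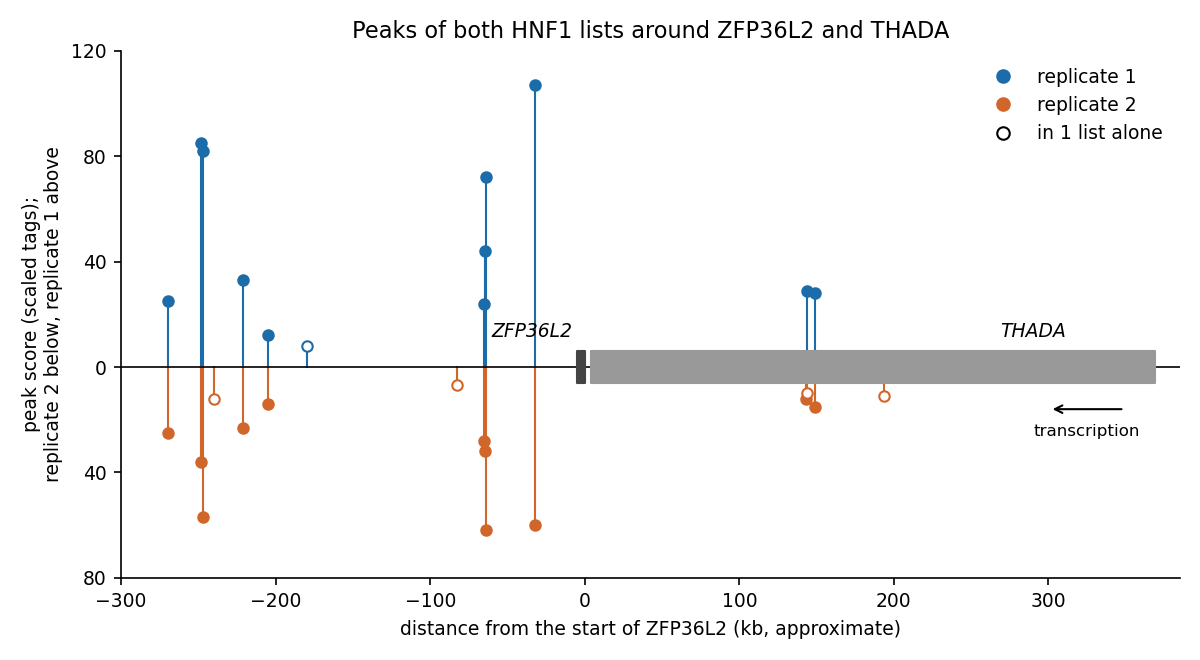
Map of the peaks, with the approximate distance from the start of ZFP36L2 in kb on the horizontal axis and the score on the vertical axis, replicate 1 upward and replicate 2 downward. Filled points are the 11 shared sites, open points the 5 peaks of 1 list alone, and bars the 2 genes. The distal side carries 9 shared sites, THADA carries 2, and the bar of ZFP36L2 carries none.

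The score of a peak is its tag number scaled to 10000000 tags of its library and rounded to a whole number, as the authors deposited it. A score of 1 stands for more tags in the deeper replicate 2 (18469659 tags in all) than in replicate 1 (11931439 tags). The median over the whole list was 12 in replicate 1 and 11 in replicate 2. Scores are given first for replicate 1 and then for replicate 2, with ranks within each list.

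The distal site nearest to ZFP36L2, at 43421375 to 43421601, was also the strongest of the locus in replicate 1. It lay about 33 kb from the start of the gene and 28 kb past its 3' end. Its score was 107 in replicate 1, the 10th highest of that list, and 60 in replicate 2, the 17th highest. These scores correspond to about 128 and 111 tags. The peak centres of the replicates were 2 bp apart. On chromosome 2 it ranked 2nd in replicate 1 and 4th in replicate 2.

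About 64 kb from the start of ZFP36L2, 3 shared sites stood within 1.5 kb. The site at 43388846 to 43389072 scored 24 and 28. Its neighbour at 43389302 to 43389528 scored 44 and 32. The third member, at 43390111 to 43390352, scored 72 and 62 and was the strongest site of the locus in replicate 2, where it ranked 14th of the list. In both replicates the member nearest to ZFP36L2 had the highest score of the triplet and the farthest member the lowest.

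Distances between the triplet's peak centres were 422 and 791 bp in replicate 1, and in replicate 2 they were 456 and 824 bp. The caller accepted no neighbours closer than 284 bp in the first list or 452 bp in the second. The smaller distance of replicate 2 was 4 bp above that limit. With neighbours taken as shared sites within 2 kb of each other, the triplet was the 1 run of 3 or more among all 2905 shared sites of the series, beside 42 runs of 2. It stayed the 1 such run with limits of 1, 1.5 and 3 kb. With 5 kb there were 4 such runs and with 10 kb there were 11. These limits were chosen after the triplet had been seen.

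A pair of strong sites lay farther out, about 248 kb from the start of ZFP36L2. Its first member, at 43205599 to 43205825, scored 85 and 36, ranking 21st in replicate 1 and 122nd in replicate 2. The second member, at 43206830 to 43207058, scored 82 and 57 and ranked 22nd in both lists. The centres of the pair were 1278 bp apart in the first list and 1231 bp in the second. The members were thus close to equal in replicate 1, while in replicate 2 the member nearer to ZFP36L2 was the higher.

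**Figure D2:**
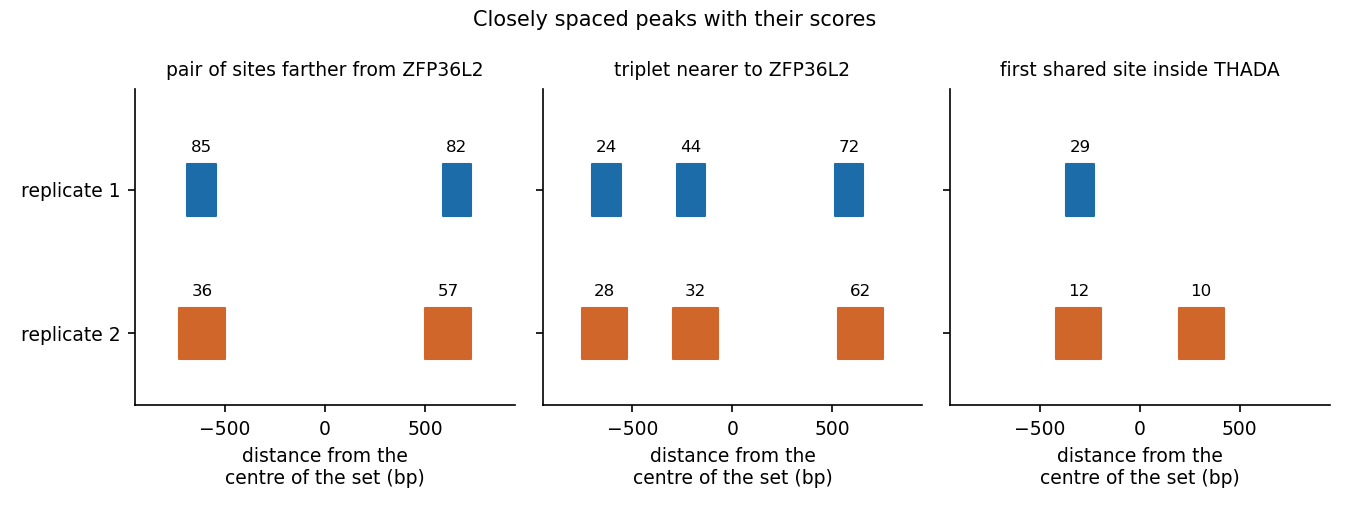
Called peaks of the pair, the triplet and the first shared site inside THADA, as bars along the distance in bp from the centre of each set, with replicate 1 above replicate 2. The number over each bar is its score. All 5 sites of the pair and the triplet have a bar in both replicates, whereas the second peak inside THADA, scored 10, stands in replicate 2 alone.

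The other 3 shared distal sites were weaker. The outermost, at 43184361 to 43184607, scored 25 in both replicates and lay about 270 kb from the start of ZFP36L2. A site at 43232790 to 43233016, about 221 kb away, scored 33 and 23. The weakest shared site of the locus in replicate 1, at 43249013 to 43249239, scored 12 and 14, which is about 14 and 26 tags. It scored above 50.1% of the list in replicate 1 and above 65.7% in replicate 2, counting ties in equal parts. No shared site was found over the next 140 kb towards the triplet.

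Inside THADA the 2 shared sites were 5.70 kb apart. The first, at 43597354 to 43597580, had a score of 29 in replicate 1 and of 12 in replicate 2. The second, at 43603044 to 43603296, scored 28 and 15. Counted from its start, they lay 62% and 60% of the way along THADA, 226 and 220 kb from the start. Whether they fall in introns or exons was not determined here. In replicate 1 they scored above 89.4% and 88.3% of the list, against 54.9% and 70.6% in replicate 2. No peak of either list lay in the 176 kb between the nearest distal site and the first THADA site, a stretch that holds ZFP36L2, LINC01126 and the 3' part of THADA. The last 175 kb of THADA before its start, and the start itself, also held none.

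The remaining 5 peaks stood in 1 list alone and scored near or below the list medians. Replicate 1 had 1 of them, at 43274032 to 43274174 on the distal side, with a score of 8. That is about 9.55 tags, against a calling threshold of 9 tags in this library. Replicate 2 had 4, with scores from 7 to 12. The highest of these, at 43213849 to 43214075, scored 12 and lay 7.02 kb from the strong distal pair. The lowest, at 43370894 to 43371120, scored 7, or about 12.9 tags against a threshold of 13. Of the other 2, both inside THADA, the one at 43597968 to 43598194 scored 10 and lay 614 bp from the first shared THADA site. The one at 43647407 to 43647633 scored 11 and was the nearest to the start of THADA. By this conversion the weakest peak of each list here stood near the threshold of its own library. The conversion is rough, since scores are rounded, and rounding is not its only limit. The lowest score of each whole list was 6, below the thresholds expressed as scores, 7.54 and 7.04.

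Seen by list, a replicate 2 partner was found for 11 of the 12 replicate 1 peaks, or 91.7% (95% Wilson interval 64.6% to 98.5%, counting error only). Over the whole list the share was 57.5%. Of the 15 peaks of replicate 2, 11 had one, or 73.3% (48.0% to 89.1%), against 58.6% over the whole list. Of all distinct sites in the series, 40.9% were shared. The locus was chosen for its shared sites, so nothing is read from its higher shares. Peak centres of the 11 shared sites differed by 2 to 68 bp between replicates, with a median of 24 bp, and by a median of 27 bp over all 2907 shared pairs of peaks.

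Of the 11 shared sites of the locus, 8 scored at least 2 times the list median in both lists, and 5 reached the 90th percentile of both. The median score of all 11 was 33 in replicate 1 (range 12 to 107) and 28 in replicate 2 (range 12 to 62), against medians of 15 and 14 over all shared sites. The median of the 9 distal sites was 44 and 32, and the 2 THADA sites had means of 28.5 and 13.5. In replicate 1 the THADA scores fell within the distal range, while in replicate 2 only 1 distal site, with 14, scored below the higher THADA site. With 2 sites inside THADA, no difference between the sides was tested. The window held 2.12% of the chromosome 2 peaks of replicate 1 but 5.75% of their summed score, and 2.76% and 4.86% in replicate 2. Among the 20 shared sites of the series that ranked within the highest 50 of both lists, 3 lay here. Among the 37 within the highest 100 of both lists, the same 3 lay here. No other fixed bin of 1 Mb held more than 2 at either cut, though a group lying across a bin edge would be split. The 3 here were the site 33 kb from ZFP36L2, the strongest member of the triplet and the second member of the pair.

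The order of the sites was similar but not equal in the 2 lists. Spearman's rho of the scores was 0.75 over the 11 shared sites and 0.82 over the 9 distal ones, as a description of sites that share 2 libraries. Replicate 1 had the higher score at 8 sites, replicate 2 at 2, and 1 was equal. The log2 ratio of replicate 1 to replicate 2 had a median of 0.52 and ranged from -0.22 to 1.27, beside a median of 0.17 over all shared pairs. The counting window was 142 bp wide for replicate 1 but 226 bp for replicate 2, so these ratios compare 2 libraries with different settings and not occupancy.

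The widest gaps between the replicates were at the first THADA site and at the first member of the pair. Their log2 ratios were 1.27 and 1.24, above those of 96.1% and 95.4% of all shared pairs. The second THADA site had 0.90. Over the 1550 shared pairs with scores of at least 12 in both lists, as all 11 sites here had, the median ratio was 0.20. Sets of pairs chosen by replicate 1 score give the replicate 2 scores beside them, and such a choice raises the ratio by construction. Both sets below include the sites of this locus that they are set beside. Among the 102 shared pairs with a replicate 1 score of 28 or 29, the replicate 2 scores had a median of 18 (quartiles 14 and 23), and 20 of them were 12 or lower. Only 2 shared pairs scored 82 to 85 in replicate 1, and they were the 2 members of the strong distal pair, so a wider set was used. Its cut of 72 equals the replicate 1 score of the triplet's strongest member. Among the 26 pairs with a replicate 1 score of at least 72, the replicate 2 median was 55, and 6 pairs had 36 or less. With 12 and 36, the first THADA site and the first member of the pair scored below the lower quartile of their sets in replicate 2 (14 and 37.2), while the second THADA site, with 15, was inside the quartiles.

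**Figure D3:**
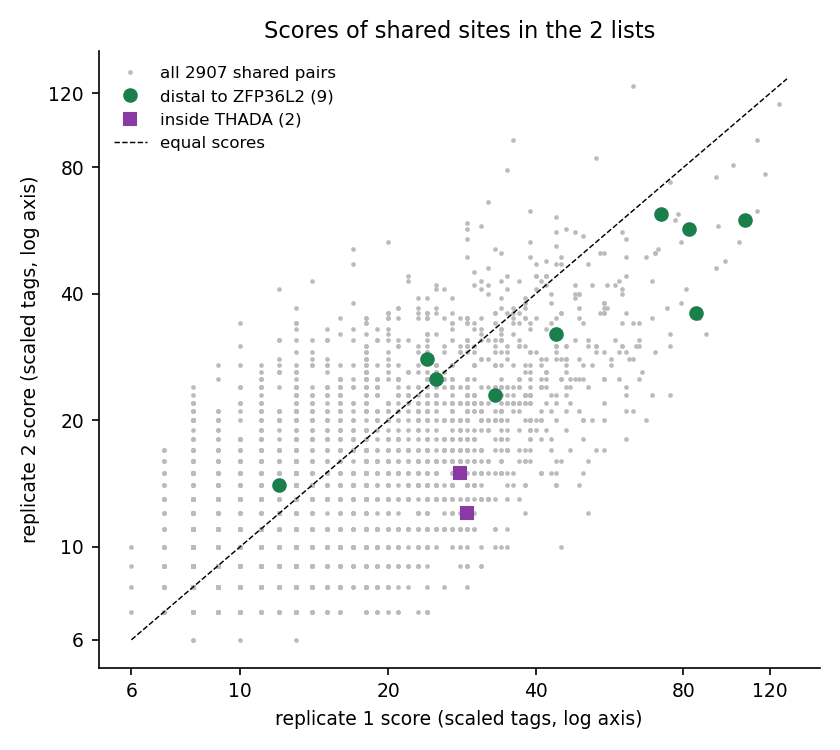
Score in replicate 2 against score in replicate 1, both on log axes, for all 2907 shared pairs (grey) with the 9 distal sites (green circles) and the 2 THADA sites (purple squares). The dashed line marks equal scores. The locus reaches scores of 107 in replicate 1 and 62 in replicate 2, at different distal sites. Both THADA sites are among the 8 sites of the locus below the line.

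Neighbouring shared sites of the locus were a median of 18.7 kb apart, against 410 kb between neighbouring shared sites over all chromosomes. The median covers distances from 0.46 kb inside the triplet to 176 kb across ZFP36L2. Of the 10 distances, 3 were under 2 kb, and 5 of the 11 sites belonged to the pair or the triplet. Over the series, 1.53% of 2882 distances were that short, and 2.99% of shared sites were in such runs.

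The next densest groups within 1 Mb held 10 shared sites each, on chromosome 10 (60228412 to 60937904) and chromosome 5 (123542775 to 124353804). They were spread over 709 and 811 kb, wider than the 419 kb here, and each had 1 distance under 2 kb. Their neighbouring sites were a median of 66.1 and 58.4 kb apart. Median scores were 22 and 23 in the chromosome 10 group and 15.5 and 20.5 in the chromosome 5 group. Of the 11 sites around ZFP36L2 and THADA, 5 were at or above the 90th percentile of both lists, as were 3 of 10 in each of the other groups and 255 of all 2905 shared sites, or 8.78%. The score ranges overlapped in both replicates, and the highest replicate 2 score was 81 in the chromosome 10 group, above the 62 reached here. All 3 groups were picked by their number of sites, so these differences were not tested.

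**Figure D4:**
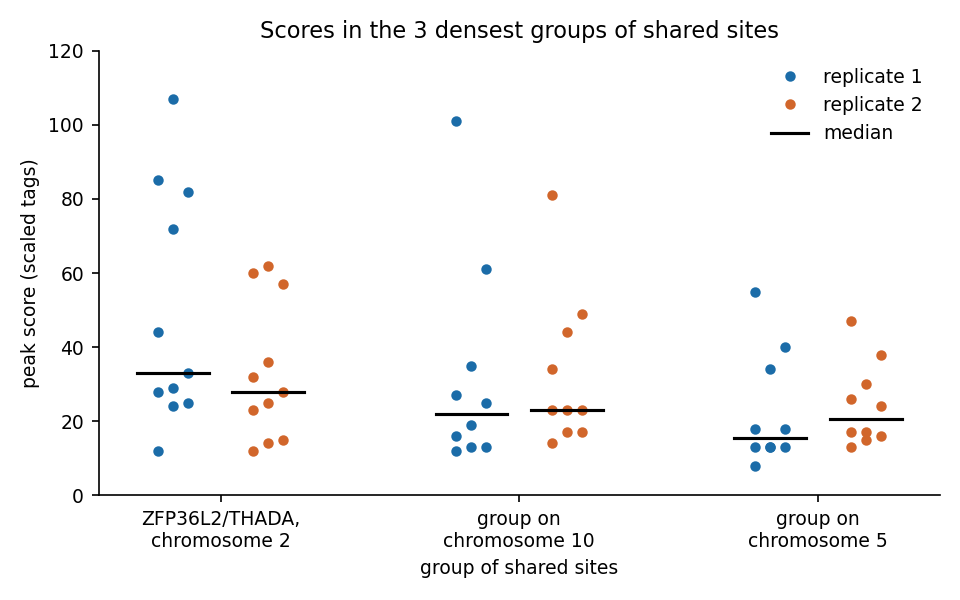
Scores of the shared sites (points) and their medians (lines) in the 3 densest groups, for replicate 1 (blue) and replicate 2 (orange). The medians of the chromosome 2 group are 33 and 28, and the points of the 3 groups overlap in both replicates.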

How the data were processed

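Peaks labelled as HNF1 binding in Caco2 cells were taken as the authors deposited them, 1 list for each of 2 libraries. Per the submitters' processing notes, Bowtie 1.0.0, HOMER 1.2 and hg19 were used, with no roles given. Per the file headers, HOMER findPeaks called each library separately against its input, with a false discovery rate limit of 0.001 and a required enrichment of 4-fold over input and over the surrounding 10000 bp, so close neighbours raise each other's local background. HOMER took fragments as 76 bp long in the first list and 226 bp in the second, while the labels' protocols give a size selection of 200 to 300 bp. The deposited score is a normalized tag count, used only within a list or side by side, and tied peaks share the best rank. Approximate tag numbers are the score times the library total over 10000000.

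Peaks overlapping by at least 1 bp were joined into shared sites. All shared sites were named. Of sites in 1 list, the highest of each list was to be named, and the others were named after their values were seen. Members, lists and settings were chosen with earlier results of these data known. Positions count from 1. The joining and spacing were checked on simulated peaks whose shared members always overlapped and whose sites lay farther apart than those of the pair and triplet. Recovery of the shared sites was thus built in, and such close neighbours were not covered. The planned motif and annotation steps were not run, since neither sequence nor annotation of hg19 was used here. Gene order came from RefSeq, where both genes matched by symbol. Python 3.11.15, numpy 2.4.6, scipy 1.17.1 and matplotlib 3.10.9 were used.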

Additional observations from a re-analysis of the deposited data

How the results depend on the processing

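The 11 shared sites stayed 11 when 50% of both peaks had to overlap, when midpoints had to lie within 100 bp, with all peaks set to 200 bp, with scores at or above the list median and with the window widened. The midpoint, list-median and window settings could not have changed this count. Midpoints differed by at most 68 bp, scores were at least 12, and no outside peak was nearer than 439 kb. With scores of at least 2 times the list median, 8 shared sites were left, all distal, and 0 inside THADA, while distinct sites fell from 16 to 10. The 2 THADA sites passed this cut in replicate 1 alone, so they still counted as distinct sites. Single lists held 12 to 15 sites, as the range without replicate 2 and without replicate 1. The median percentile of the shared sites, 92.3 in replicate 1 and 93.9 in replicate 2, was 90.9 and 89.2 over all peaks of the window. The median log2 ratio of 0.52 was 0.35 above that of all shared pairs, and the median spacing of 18.7 kb was 18.0 kb over all distinct sites. No paired analysis was possible because only 1 list per immunoprecipitation was analysed, already called against its input. The planned motif settings were not run. By tags converted from rounded scores, the weakest peaks, at about 9.55 and 12.9 tags, lie close to the calling thresholds of 9 and 13 tags. The effect of depth on them was not tested.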
